A study of Mus musculus with 336 samples.

Results

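Bhlhe40 and Bhlhe41, also known as Dec1 and Dec2, were followed through the messenger RNA of mouse cells and liver with and without Bmal1. They are 2 named genes, chosen by symbol, of the 47102 to 47218 rows with a symbol in each of 3 deposited tables, and both were present in all 3. The first course followed confluent mouse skin fibroblasts (MSF), and the second followed slices of adult liver kept in culture (ex-vivo liver). Each had wild-type (WT) and Bmal1-/- (KO) samples at 24 times labelled CT00 to CT69, every 3 h. Both were given 100 nM dexamethasone, a glucocorticoid used to synchronise clocks, for 15 min, and harvest began 48 h later in constant darkness. The third, called the short course here, held mouse liver at T00, T06, T12 and T24, with 3 replicates of each genotype at each time. What its times count from is not given in the sources used here, nor is whether that liver was cultured. All samples were on the C57BL/6 background, and all records of the short course carry the same dexamethasone protocol (100 nM, 15 min), whose text names fibroblasts and liver slices, so both genotypes of every course share the hormone as far as the labels say. The growth protocol gives 3 per time and genotype, while each long-course table holds 1 column for each. The sources used here do not give how many MSF lines or animals stand behind a genotype, so p-values measure the spread of these samples alone, part of which may be technical.

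Both proteins are basic helix-loop-helix repressors. They bind E-boxes, the short DNA motif through which the CLOCK and BMAL1 pair activates its targets, and they hold those targets down. Their own genes are known targets of CLOCK and BMAL1 and are also switched on by hypoxia and hormones, in fibroblasts and liver among other tissues, so they are regarded as a side loop of the clock.

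In GENCODE vM21 (GRCm38), Bhlhe40 (ENSMUSG00000030103) lies on the plus strand at chr6:108660629-108666925, and its longest annotated transcript has 5 exons. Bhlhe41 (ENSMUSG00000030256) lies on the minus strand of the same chromosome at chr6:145858243-145865558, also with 5 exons. The RefSeq promoter table (GRCm38.p6) matched 1 of the 2 members, Bhlhe41. The stretch ahead of its outermost annotated start is shown because it holds the element through which BMAL1 is known to act. It covers chr6:145865559-145865670, is read 5′ to 3′ on the minus strand, and has the E-box in capitals.

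Bhlhe41 upstream: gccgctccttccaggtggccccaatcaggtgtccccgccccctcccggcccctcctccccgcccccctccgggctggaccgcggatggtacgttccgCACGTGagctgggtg

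The motif CACGTG, which reads the same on both strands, occurred 1 time in the 250 bases ahead of the RefSeq start. It lay 153 to 148 bases before that start, and 15 to 10 bases before the outermost GENCODE start. Of 32851 promoters of the same length, 6.02% held it. The shorter string ACGTG, a form of the core of the hypoxia element and the only form searched for, is contained in every CACGTG. On either strand it was present in 16.6% of promoters, and Bhlhe41 had 0 copies of it outside the E-box. Of 15 E-box clock genes listed, 12 were in the promoter table and 5 of them held CACGTG there: Bhlhe41, Ciart, Cry1, Per1 and Tef.

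Arntl, the gene that encodes BMAL1, was examined first. Its gene-level value was 10.6 ± 0.754 FPKM (SD, n = 24 times) in WT fibroblasts and 6.84 ± 0.557 in KO fibroblasts, and the ranges did not overlap. FPKM is the number of sequenced fragments divided by transcript length and by library size. In the slices it was 4.499 ± 1.05 FPKM in WT and 4.09 ± 0.728 in KO, with overlapping ranges, and in the short course 1.45 ± 0.985 in WT and 2.31 ± 0.512 in KO (SD, n = 12). Which exons the allele removes is not given in the sources used here, so a value summed over the gene does not check the labels. Of the marker lists, the hepatocyte genes summed to 1164 to 74206 FPKM in the slices and to 3.38 to 7.52 FPKM in the fibroblasts. The 5 fibroblast markers left in the MSF table summed to 1823 to 5064 FPKM. Within each liver course, likeness to the other libraries was lowest for KO slices CT09, CT39 and CT42, WT slices CT66 and CT69 and the T24 library of KO replicate 2 in the short course.

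Bhlhe40 was the more abundant member, per length, in every course and genotype. The ratio of its mean FPKM to that of Bhlhe41 was 8.03 in WT fibroblasts, 25.2 in WT slices and 6.68 in the WT short course. In KO samples the ratio was 7.15 in fibroblasts, 21.3 in slices and 223 in the short course. The last ratio rests on a Bhlhe41 mean of 0.208 FPKM. The tables were normalized separately, so only ratios within a table are given.

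In the liver slices, Bhlhe40 was lower without Bmal1 at every time sampled. WT slices held 28.9 to 65.4 FPKM with a median of 37.2, and KO slices 12.2 to 30.03 with a median of 20.2. The KO value was the lower one at 24 of 24 times. The share of all genes lower at every time is not given here. The ranges touched only at the edge: 23 of 24 KO slices were below the lowest WT slice, and KO CT33 at 30.03 FPKM was above WT CT15 at 28.9 and WT CT27 at 29.0. The WT mean was 1.95 times the KO mean. On the log2(FPKM + 1) scale used for all differences below, KO minus WT was -0.92 ± 0.087 (SE, 95% interval -1.10 to -0.75, limma adjusted p = 2.07e-12). That size fell short of the difference of 1 set for a call, so Bhlhe40 was not among the 4.05% of 14560 genes called lower. By adjusted p alone it passed, as did 66.4% of all genes in that direction.

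The median of all genes in the slices was -0.34 on the same scale. After rescaling each library by median-of-ratios factors that median became -0.002, and the Bhlhe40 difference became -0.53 (adjusted p = 2.37e-06). Bhlhe40 thus stayed below the bulk of genes under either scaling, by a smaller amount under the second. In bulk tissue, fewer cells of a type and less RNA per cell cannot be told apart. The macrophage and Kupffer list moved with genotype in the same slices. All 8 of its genes were called lower in KO, and their summed level was 204 to 4724 FPKM in WT and 70.7 to 418 in KO, with none at 0. Of the fibroblast markers, 5 of 8 were called lower, with sums of 101.2 to 560 FPKM in WT and 14.2 to 1253 in KO. The hepatocyte list overlapped, with 2 of 8 called higher. Their part in the Bhlhe40 result was not tested.

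Bhlhe41 was scarce in the slices and less uniform. WT slices ranged from 1.12 to 2.28 FPKM with a median of 1.49, and KO slices from 0.207 to 4.40 with a median of 0.694. KO was lower at 19 of 24 times, and 18 KO slices were below every WT slice. KO CT42 at 4.40 and KO CT06 at 2.95 FPKM stood above every WT slice, and KO CT39 reached 1.84. KO minus WT was -0.50 ± 0.117 (SE, adjusted p = 0.000244), below the size set for a call. KO CT06, CT39 and CT42 hold the highest KO values of Bhlhe41 itself. Without them, an alternative chosen after seeing the data, the difference was -0.66 ± 0.071. Leaving out the highest KO values widens it by construction, so this gives no support. With all slices and median-of-ratios factors, KO minus WT was -0.29 (adjusted p = 0.0505), which misses the threshold.

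The 3 KO slices with high Bhlhe41 stood apart from the other KO slices in different lists, and none of the lists set all 3 apart. The 16 hypoxia-induced genes, such as Vegfa and Slc2a1, summed to 1019 FPKM at CT06, 605 at CT39 and 670 at CT42, against 448 to 659 in the other KO slices. Stellate and smooth muscle markers summed to 292 FPKM at CT06, 7.53 at CT39 and 6.51 at CT42, against 7.07 to 95.8 in the others. Biliary markers summed to 324 FPKM at CT42, 136 at CT06 and 183 at CT39, against 94.5 to 233. Endothelial markers summed to 21.1 FPKM at CT39, 150 at CT06 and 56.5 at CT42, against 55.3 to 407. Their part in the Bhlhe41 values was not tested.

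**Figure D1:**
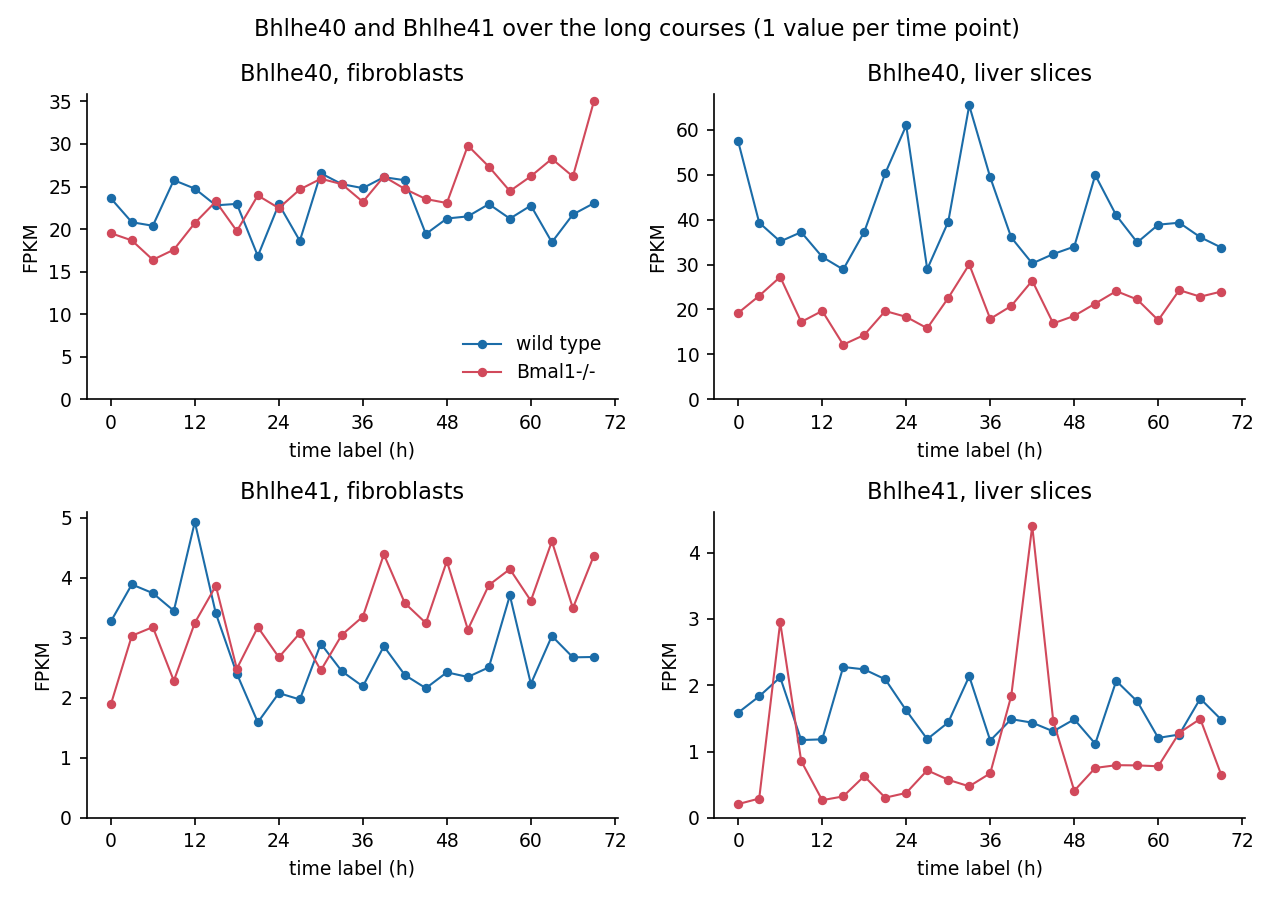
FPKM of Bhlhe40 (top) and Bhlhe41 (bottom) against the time label in hours, in fibroblasts (left) and liver slices (right), with 1 point per time and genotype and WT in blue and KO in red. Bhlhe40 in KO slices runs below WT at 24 of 24 times, Bhlhe41 in KO slices has peaks of 2.95 at CT06 and 4.40 at CT42, and the fibroblast lines cross.

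In fibroblasts neither member was called lower without Bmal1. Bhlhe40 ranged from 16.8 to 26.6 FPKM in WT with a median of 22.9, and from 16.4 to 35.0 in KO with a median of 24.2. KO was higher at 14 of 24 times and the ranges overlapped almost throughout. KO minus WT was 0.08 ± 0.042 (SE, 95% interval -0.01 to 0.16, adjusted p = 0.0807). Bhlhe41 ranged from 1.59 to 4.93 FPKM in WT with a median of 2.59, and from 1.89 to 4.61 in KO with a median of 3.25. KO was higher at 18 of 24 times, by 0.20 ± 0.061 (SE, 95% interval 0.08 to 0.33, adjusted p = 0.00254). That was past the adjusted p threshold, as were 37.3% of all genes in this direction, and short of the size for a call. Of 15060 genes, 9.83% were called lower in KO fibroblasts, and neither member was among them.

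The fibroblast comparison changed over the 3 days. On day 1 the KO mean of Bhlhe40 was 19.98 ± 2.61 FPKM and the WT mean 22.2 ± 2.83 (SD, n = 8 times), and KO was lower at 6 of 8 times. On day 3 the KO mean was 27.5 ± 3.67 and the WT mean 21.6 ± 1.48, and KO was higher at 8 of 8 times. Bhlhe41 in KO went from 2.90 ± 0.633 FPKM on day 1 to 3.94 ± 0.498 on day 3, while WT held 3.34 ± 0.997 and 2.70 ± 0.475. It was higher in KO at 3 of 8 times on day 1 and at 8 of 8 on day 3. In KO fibroblasts the linear trend rose by 0.23 ± 0.033 per 24 h for Bhlhe40 (SE, adjusted p = 1.13e-05) and by 0.18 ± 0.043 for Bhlhe41 (adjusted p = 0.00353). So 2 of 2 members rose there, where 14.4% of all genes did. In WT fibroblasts 14.5% of genes rose and neither member did, with slopes of -0.02 for Bhlhe40 and -0.11 for Bhlhe41. The difference between the genotypes' slopes was not tested. Left to days 2 and 3 alone, the KO slopes were 0.18 (adjusted p = 0.0982) and 0.20 (adjusted p = 0.147), and on days 1 and 2 that of Bhlhe41 was 0.13 (adjusted p = 0.398). Proliferation markers differed between these cultures: 4 of 4 were called lower in KO, with sums of 144 to 189 FPKM in WT and 14.04 to 41.2 in KO. The hepatocyte, macrophage and lymphocyte sums overlapped, and those of the other cell type lists did not. Fibroblast markers summed to 1823 to 2295 FPKM in WT and 3164 to 5064 in KO, and biliary markers to 18.3 to 35.1 and 67.8 to 155. Stellate and smooth muscle markers summed to 269 to 340 in WT and 103 to 179 in KO, and endothelial markers to 6.70 to 13.2 and 2.04 to 4.73. Their part in the members' values was not tested.

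Set against each other, the 2 tissues gave different genotype differences for both genes. The test was run on the members alone, and the share of all genes with such a gap is not given here. The median difference of all genes was -0.34 in slices and -0.04 in fibroblasts. The difference at each time was -0.92 ± 0.373 (SD, n = 24) for Bhlhe40 in slices and 0.08 ± 0.294 in fibroblasts. The gap, slices minus fibroblasts, was -1.001 ± 0.097 (SE), with a two-sided permutation p of 2e-05, adjusted over the 2 members, which is the smallest that 100000 resamples can give. For Bhlhe41 the differences were -0.50 ± 0.585 in slices and 0.20 ± 0.369 in fibroblasts. The gap was -0.70 ± 0.141 (SE, permutation p = 2e-05, the same smallest value). After median-of-ratios rescaling within each table the gaps were -0.66 (permutation p = 4e-05) and -0.53 (permutation p = 0.00086). Each time point is 1 value, so this test takes time points as the units, and neighbouring times may share cultures or livers. Tissue, table and normalization cannot be told apart in it.

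**Figure D2:**
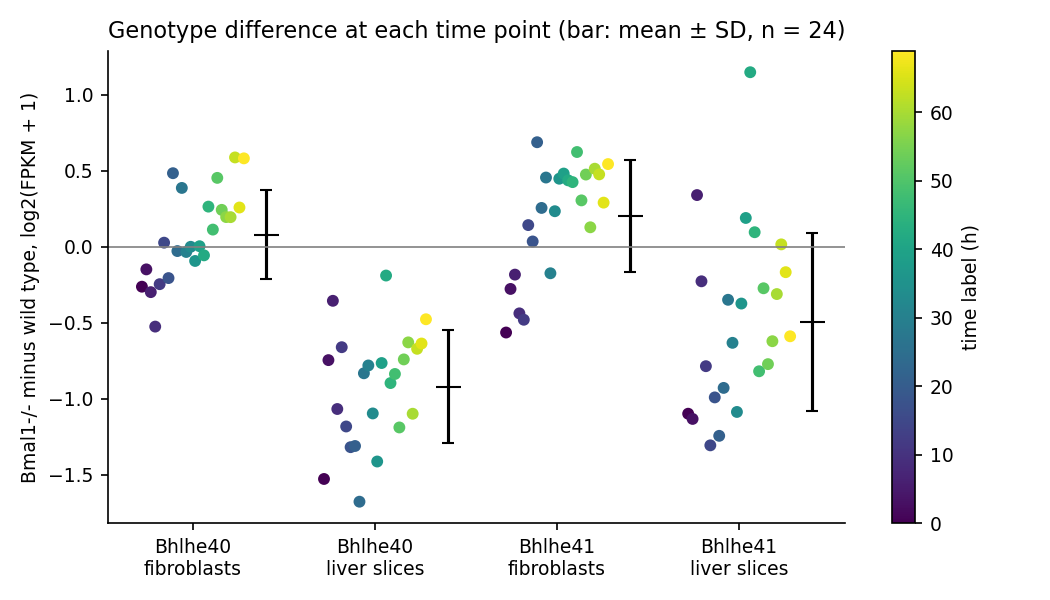
KO minus WT on the log2(FPKM + 1) scale at each of 24 times for each gene and tissue, coloured by the time label in hours, with the mean and SD beside each set and a grey line at 0. All Bhlhe40 slice points lie below 0 (mean -0.92), the fibroblast points of both genes climb with time, and the 2 highest Bhlhe41 slice points are CT42 and CT06.

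In the short liver course Bhlhe41 was nearly absent without Bmal1, and its WT level rose with time. At T00, Bhlhe41 was 1.20, 0.787 and 1.45 FPKM in the WT replicates and 0.0793, 0.00278 and 0.00492 in the KO replicates. At T06 the WT values were 9.47, 11.2 and 17.6 FPKM and the KO values 0.295, 0.0794 and 0.0849. At T12 they were 8.23, 20.7 and 14.04 in WT and 0.362, 0.580 and 0.127 in KO. At T24 they were 13.4, 24.6 and 22.1 in WT and 0.283, 0.497 and 0.107 in KO. No KO library reached the lowest WT library at any time, nor did any KO library reach 1 FPKM. The share of all genes so separated is not given here. The KO minus WT difference was -1.05 ± 0.271 at T00 (SE, adjusted p = 0.0303), -3.54 at T06, -3.43 at T12 and -3.99 at T24, each later one with an SE of 0.271 and an adjusted p of at most 3.31e-07. A pseudocount of 1 understates folds for values this low. The ratio of WT to KO means was 39.5 at T00, 83.4 at T06, 40.2 at T12 and 67.9 at T24, so the ratio at T00 was close to that at T12 while the log2(FPKM + 1) differences were far apart. The depth behind these ratios is unknown. The call at T00 was lost without WT replicate 3 and without any 1 of the KO replicates (adjusted p of 0.0961 to 0.153).

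WT Bhlhe41 rose from a mean of 1.14 ± 0.333 FPKM at T00 to 20.1 ± 5.88 at T24 (SD, n = 3), a change of 3.27 ± 0.271 on the log2 scale. The F test over the 4 times gave an adjusted p of 4.9e-08 in WT, where 64.4% of all genes changed, and 0.536 in KO, where 72.2% did. The contrasts with T00 were called rising in WT at all 3 later times. Such calls were made for 23% of genes at T06, 24.7% at T12 and 29.8% at T24. In KO the changes were 0.16, 0.39 and 0.32 and none was called. The genotype by time interaction was called for Bhlhe41 (adjusted p = 0.00119), as it was for 1.75% of genes. With a pseudocount of 0.1, KO Bhlhe41 was called as changing (adjusted p = 0.0114) and the interaction was not called (adjusted p = 0.109). Other lists moved over time in the same libraries. At T06 against T00 in WT, 11 of 15 hypoxia-induced genes and 4 of 4 biliary markers were called higher. Of 8 hepatocyte markers 5 were lower and 1 higher. In KO the counts were 8 of 15 and 4 of 4 higher, and 2 of 8 hepatocyte markers lower. Their part in the members' values was not tested.

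Bhlhe40 in the same livers differed less, and at T24 alone was the difference called. At T00 the WT replicates were 42.4, 22.6 and 27.2 FPKM and the KO replicates 17.2, 56.6 and 45.03, so the groups overlapped. At T06 they were 100.5, 158 and 100.6 in WT and 62.9, 99.2 and 72.2 in KO. At T12 they were 97.1, 86.2 and 70.9 in WT and 46.4, 27.3 and 44.1 in KO. At T24 they were 86.7, 70.3 and 105 in WT and 46.7, 11.8 and 28.2 in KO. From T06 on, no KO library reached the lowest WT library, though at T06 KO replicate 2, at 99.2 FPKM, was close to it. With 3 libraries a side this alone shows little, and the share of all genes so separated is not given here. The difference was 0.25 ± 0.427 at T00 (SE, adjusted p = 0.894), -0.60 at T06 (adjusted p = 0.637), -1.12 at T12 (adjusted p = 0.201) and -1.74 at T24 (adjusted p = 0.0102), with the same SE. Without KO replicate 2, whose T24 library was among those least like the rest, the T24 difference was -1.22 (adjusted p = 0.0392). It lost its call without WT replicate 1 (adjusted p = 0.0539) and without WT replicate 3 (adjusted p = 0.0767).

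The share of all genes called lower in KO was 1.87% at T00, 0.694% at T06, 1.39% at T12 and 10.4% at T24. Averaged over the 4 times, 2 of 2 members were called lower, with 11% of all genes. Bhlhe41 differed by -3.001 ± 0.135 (SE, adjusted p = 2.05e-11) and had the 14th largest difference of 12545 genes. Bhlhe40 differed by -0.80 ± 0.213 (adjusted p = 0.0133), a call lost without WT replicate 1 (adjusted p = 0.0678) or WT replicate 3 (adjusted p = 0.0568). The median of all genes was -0.01 here, and rescaling left both differences within 0.01 of these values. In the same libraries 4 of 8 macrophage and Kupffer markers were called lower in KO (sums of 143 to 378 FPKM in WT and 121 to 320 in KO), and their part in the members' values was not tested.

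Bhlhe40 changed over the short course in both genotypes, though calls in each were lost without single replicates. The WT mean went from 30.7 ± 10.4 FPKM at T00 to 119.8 ± 33.4 at T06 and 87.3 ± 17.2 at T24 (SD, n = 3), and all 3 later times were called above T00. The WT calls were not stable to single replicates: without WT replicate 2 the F test gave an adjusted p of 0.0875, and T06 and T12 lost their calls (0.0523 and 0.0847), and without WT replicate 3 T12 and T24 did (0.0521 and 0.0711). The KO mean went from 39.6 ± 20.2 FPKM at T00 to 78.1 ± 18.9 at T06, then 39.3 ± 10.4 at T12 and 28.9 ± 17.5 at T24. In KO only T06 was called above T00, by 1.09 ± 0.427 (adjusted p = 0.0456), among 20.6% of genes. At T12 and T24, 25.4% and 31.7% of genes were called above T00 in KO, and neither member was. The call at T06 in KO was lost under 7 of 10 alternatives (adjusted p of 0.0651 to 0.169). The F test over time gave an adjusted p of 0.00333 in WT and 0.0191 in KO, and the interaction 0.204, so a different course in the 2 genotypes was not shown for Bhlhe40. The KO call over time was lost without KO replicate 2 (adjusted p = 0.0596) and without KO replicate 3 (adjusted p = 0.0827). Without KO replicate 1 the interaction was called (adjusted p = 0.023).

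**Figure D3:**
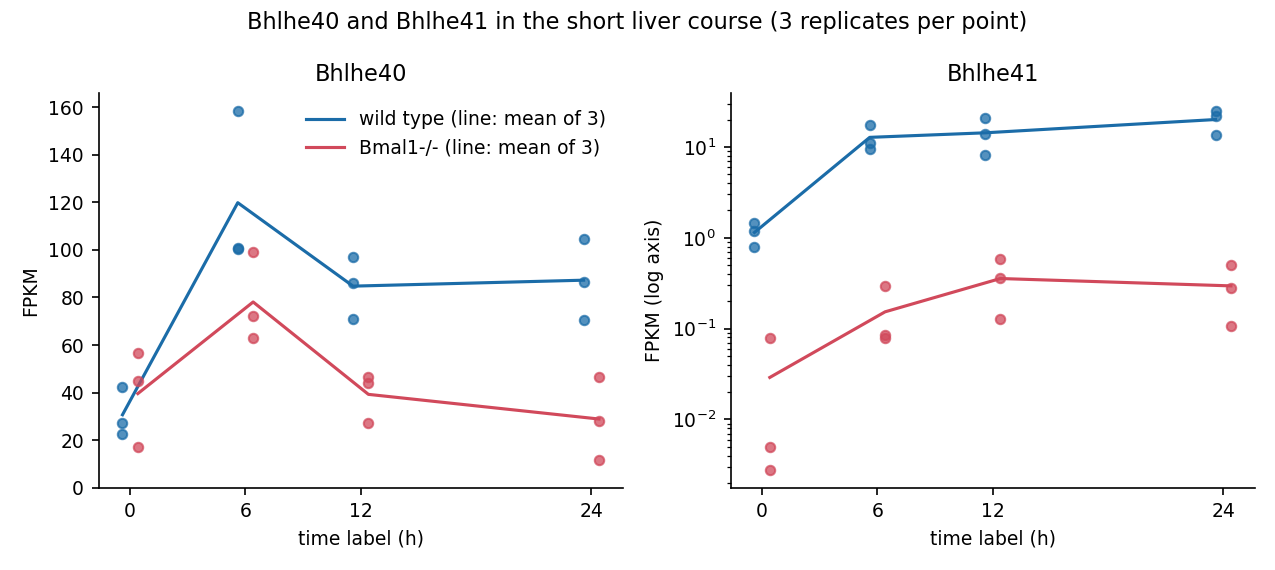
FPKM of Bhlhe40 (left, linear axis) and Bhlhe41 (right, log axis) against the time label in hours in the short liver course, with WT in blue and KO in red, 1 point per replicate and lines through the means of 3. Bhlhe40 genotypes overlap at T00 and part later, while Bhlhe41 stays under 1 FPKM in every KO library and reaches 8.23 to 24.6 FPKM in WT from T06 on.

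A transcript of uncertain status, Gm43909, overlaps Bhlhe41 on the opposite strand. Its level was 2.01 ± 1.72 FPKM in the WT short course and 0.0562 ± 0.0917 in KO (SD, n = 12). The libraries were made with a stranded kit, but whether the counting used strand is not given in the sources used here, so reads of the 2 loci cannot be told apart. Bhlhe40 overlaps the antisense gene 0610040F04Rik at its 5′ end, which stood at 0.163 FPKM on average in that course.

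No 24 h wave was called for either member. In WT fibroblasts, where 0.0341% of genes were called, the fitted amplitude was 0.10 ± 0.044 for Bhlhe40 (SE, adjusted p = 0.765) and 0.17 ± 0.069 for Bhlhe41 (adjusted p = 0.729), with peaks at 11.4 h and 10.5 h. In KO fibroblasts, where 0% of genes were called by limma (873 of 14707 had an unadjusted p below 0.05), the amplitudes were 0.03 and 0.08. In WT slices, where 1.98% were called, they were 0.12 ± 0.096 (adjusted p = 0.771) and 0.04 ± 0.068 (adjusted p = 0.944). In KO slices 11.2% of genes were called, and Bhlhe40 had 0.15 ± 0.081 (adjusted p = 0.422). That share fell to 8 genes of the table without KO CT06, CT39 and CT42, and the Bhlhe40 amplitude was then 0.17 (adjusted p = 0.356). Bhlhe41 missed the filter of a mean of 1 FPKM in KO slices, with a mean of 0.971. With no filter its amplitude there was 0.15 ± 0.156 (adjusted p = 0.818). The difference in rhythm between genotypes was called for 0.00664% of genes in fibroblasts and 4.13% in slices, and for neither member (adjusted p of 0.83 to 0.984). Rising trends were called for 9.85% of genes in WT slices and 1.96% in KO slices, and for neither member, Bhlhe41 in KO being below the filter. For comparison, Nr1d1, Nr1d2 and Dbp, 3 direct outputs of the clock, passed the rhythm test in WT fibroblasts, with amplitudes of 0.25, 0.21 and 0.33, and are named here after their values were seen. In WT slices none of these 3 passed the rhythm test (adjusted p of 0.802, 0.789 and 0.716), so the missing wave there was not particular to the members. In KO slices Nr1d1 was called (amplitude 0.37, adjusted p = 0.0181) and Nr1d2 was not (adjusted p = 0.524). Per1, Cry1 and Clock were called there too (adjusted p of 0.0253 to 0.0371). Per2, Cry2, Ciart, Tef, Wee1, Nampt, Npas2, Arntl and Arntl2 were not. Over all genes, the calls in KO slices fell to 0 without day 2 and to 0 without day 3. Without KO CT09, CT27, CT39 and CT42 they fell to 26.

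The 2 genes moved together over time in 1 of 4 courses. In KO fibroblasts Pearson's r was 0.58 (permutation p = 0.00333, adjusted over 4 courses 0.0133) and Spearman's rho 0.54 (permutation p = 0.00731, adjusted 0.0292), over 24 times. Without the 2 times farthest from the Bhlhe40 median, CT06 and CT69, r was 0.59. Taken as residuals from each gene's linear trend, r was -0.01 (permutation p adjusted 0.979). In WT fibroblasts r was 0.29 and rho 0.20, and without CT21 and CT63 r was 0.15. In WT slices r was 0.13 and rho 0.12, and without CT24 and CT33 r was -0.03. In KO slices r was 0.40 and rho 0.28, and without CT15 and CT33 r was 0.47. Adjusted permutation p for those 3 was 0.108 to 0.549 for r and 0.374 to 0.592 for rho.

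The other E-box clock genes gave a setting for these values. The list holds repressors (Per1, Per2, Per3, Cry1, Cry2, Nr1d1, Nr1d2, Ciart) and outputs (Dbp, Tef, Hlf, Wee1, Nampt). In fibroblasts 6 of the 13 tested were called lower and 1 higher, with a median of -0.54 against -0.04 for all genes. The PAR bZIP factor Hlf (-2.55), Nr1d2 (-2.52), the kinase gene Wee1 (-1.29), Nr1d1 (-1.27) and Ciart (-1.23) were lower there and Cry1 was higher (1.44). Nr1d1 and Nr1d2 encode the nuclear receptors REV-ERB alpha and beta. The members, at 0.08 and 0.20, were not called, as 6 of the other 13 were not. In slices 3 of 13 were lower, namely Nr1d1 (-1.9996), Nr1d2 (-1.68) and Dbp (-1.64), and Cry1 (1.44) was higher, with a median of -0.39 against -0.34 for all genes. In the short course 9 of 13 were lower and 1 higher, with a median of -1.01 against -0.01. Nr1d1 (-4.14), Dbp (-3.75), Ciart (-3.33) and Nr1d2 (-2.52) were lower, and Cry1 (1.39) was higher. Bhlhe41 at -3.001 fell between Ciart and Nr1d2. Among the 5 listed genes with CACGTG in the promoter window, the short-course differences ran from -3.33 for Ciart to 1.39 for Cry1. The part of the motif in these differences was not tested.

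**Figure D4:**
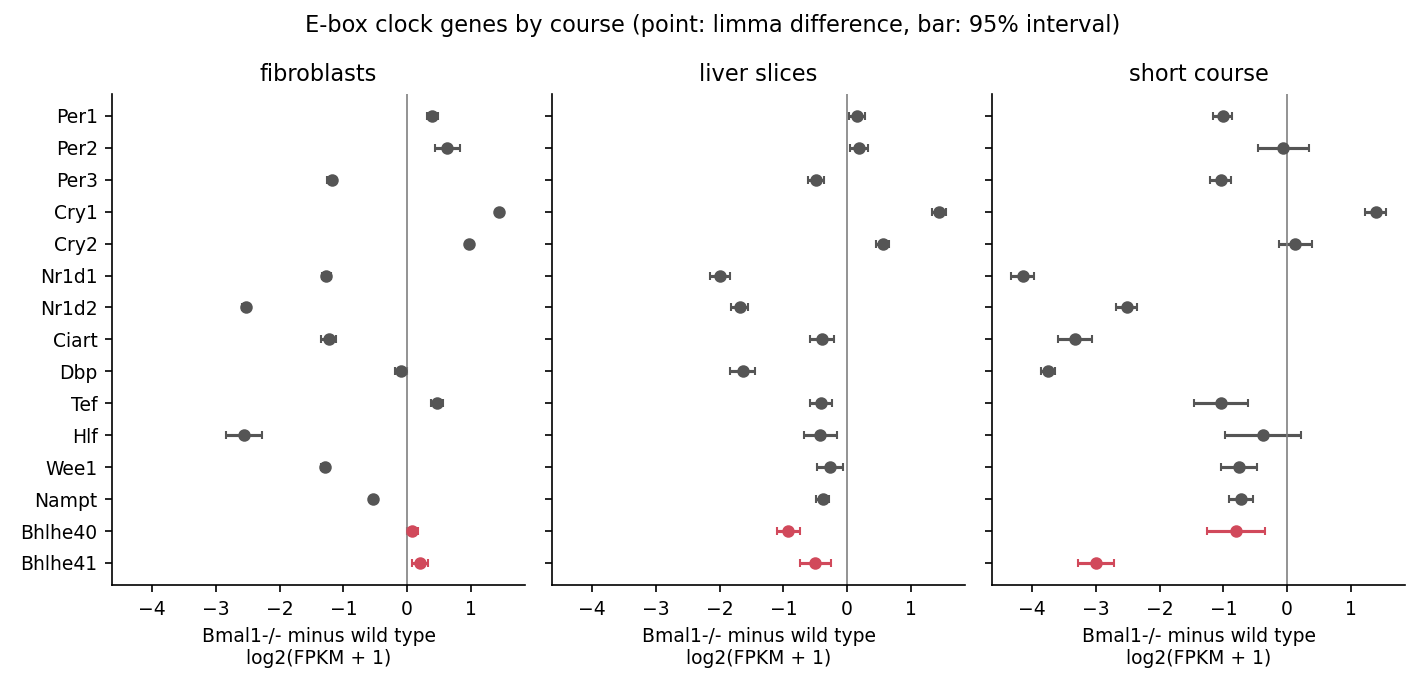
KO minus WT on the log2(FPKM + 1) scale for 15 E-box clock genes in fibroblasts, liver slices and the short liver course, with points for the limma difference, bars for the 95% interval, and the 2 DEC genes in red. Bhlhe41 sits at 0.20, -0.50 and -3.001 in the 3 panels and Bhlhe40 at 0.08, -0.92 and -0.80, while Nr1d1 and Nr1d2 lie left of 0 in all of them.

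Lists of genes near the members in function were counted the same way, and those called are named after their values were seen. Of the clock activators, Npas2, a relative of Clock, was called higher in KO in all 3 courses, by 1.48 in fibroblasts, 1.26 in slices and 2.39 in the short course. Clock (0.69) and Arntl (0.53) were higher in the short course too. Of the hypoxia-induced genes, 2 of 15 were lower in KO fibroblasts, the hexokinase gene Hk2 (-1.39) and Adm (-1.15), and Egln3, a prolyl hydroxylase gene, was higher (1.35). In slices 2 of 16 were lower, Hk2 (-1.11) and the lactate dehydrogenase gene Ldha (-1.01). In the short course 4 of 15 were lower, Pfkfb3 (-1.41), Bnip3 (-0.76), Ldha (-0.59) and Vegfa (-0.30), and Ndrg1 was higher (0.90). Only 2 of the 10 related Hes and Hey repressors were expressed enough to test in each course, and Hes6 was called lower in slices (-1.09) and in the short course (-1.31).

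Likeness was measured as Pearson's r of log2(FPKM + 1) with the mean of each genotype removed, among genes averaging 5 FPKM or more. It is given as a description, since all points share libraries and scaling. Over the 24 short-course libraries, Bhlhe41 was most like Ndrg1 (r = 0.90), a stress- and hypoxia-responsive gene, Fam129b (0.89) and Cdkn1a (0.89), the gene of the cell-cycle inhibitor p21. Bhlhe40 was most like Stat3 (0.83), Rora (0.80) and Tob2 (0.80) there. Over the 48 slice columns, Bhlhe41 was most like Pkdcc (0.73), the glycolytic gene Aldoa (0.66) and Ppp1cb (0.65), and Bhlhe40 most like Snx7 (0.69), Slc35c1 (0.69) and Rnf141 (0.67). Over the 48 fibroblast columns, Bhlhe40 was most like Derl1 (0.72), Timp2 (0.70) and Hmox1 (0.69), and Bhlhe41 most like Smim11 (0.64), Ap3d1 (0.64) and Fbln5 (0.62). No gene was among the 3 nearest to a member in more than 1 course.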

How the data were processed

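Polyadenylated RNA of MSF and liver from WT and Bmal1-/- mice was sequenced, per the labels' protocols, from stranded libraries. The submitters' processing notes name TopHat2 2.1.0, Cuffdiff and the GRCm38 build. The deposited values are FPKM, computed by the authors. The annotation release is not given in the sources used here, nor is the scaling between libraries. Runs of a library share 1 FPKM column. No sample column was left unused (0). From MSF, 118 genes with a value marked failed or too abundant by Cuffdiff were dropped, neither of them a member. The deposited 95% limits of the MSF FPKM had a median half-width of 27.5 to 29.97% of the value for Bhlhe40 and 43.2 to 45.02% for Bhlhe41.

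Depth is unknown. Steps between low values pointed to 1 common read worth in only 19.6 to 25.3% of low genes, so no reads were recovered and no count test was run. Differences were tested on log2(FPKM + 1), for genes averaging 1 FPKM or more, using moderated limma tests with a variance trend (limma 3.58.1, R 4.3.3) and Benjamini-Hochberg adjustment over all genes. A long-course genotype call needed both an adjusted p below 0.05 and a size of 1 or more, and other calls the adjusted p alone. Rhythms were a 24 h cosine and sine beside a linear trend. Permutation tests and likeness used Python 3 with scipy. The scripts were tested on simulated data. One run of KO T00 replicate 3 carries conflicting time labels, and its title was followed.

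Named genes were the members, Arntl, up to 6 called genes of the E-box list per comparison, and the 3 genes most like each member per table. One gene of the E-box list is not reported here. Members and lists were chosen with earlier results of these data known. Alternatives were the pseudocount, the filter, median-of-ratios scaling, the trend term, blocks, single days, and leaving out libraries. Whether replicate numbers pair the samples is not given in the sources used here, so the block is an alternative only.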

Additional observations from a re-analysis of the deposited data

Results flagged for a closer look

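3 results were marked because an effect differed between groups by a test of the difference itself. The slices minus fibroblasts gap in the KO minus WT difference of Bhlhe40 was -1.001 on the log2(FPKM + 1) scale, and that of Bhlhe41 was -0.70 (permutation p = 2e-05 for each, the smallest the resamples can give). That test took time points as the units, and neighbouring times may share cultures or livers. With median-of-ratios rescaling the gaps were smaller, at -0.66 and -0.53. Tissue, table and normalization cannot be told apart in them, and the share of all genes with such a gap is not given here. The KO minus WT difference of Bhlhe41 spanned 2.94 over the 4 times of the short course, from -1.05 at T00 to -3.99 at T24 (limma interaction, adjusted p = 0.00119). That span depends on the pseudocount of 1: with 0.1 the interaction was not called (adjusted p = 0.109), and the ratio of WT to KO means was 39.5 at T00 and 40.2 at T12.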

How the results depend on the processing

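Of 1293 recomputed values for the members, 1247 kept their direction and their side of the threshold. The cause of the others was not tested. The count is not a measure of stability. Amplitudes and spreads over time have no direction to reverse. All long-course genotype differences of the members fell short of the size for a call. A lost adjusted p therefore did not count as a change, as for Bhlhe41 in slices after rescaling. Bhlhe40 in fibroblasts also missed the adjusted p threshold. Many of the values came from fits without 1 library, which share nearly all samples. With adjusted p alone and no size limit, 3 long-course differences became calls: Bhlhe41 in fibroblasts (0.20), Bhlhe40 in slices (-0.92) and Bhlhe41 in slices (-0.50). Without day 3 the fibroblast Bhlhe40 difference was -0.046, and the WT slopes per 24 h were 0.028 for Bhlhe40 in fibroblasts, 0.015 for Bhlhe40 in slices and -0.35 for Bhlhe41 in fibroblasts, now called. Without day 1 the Bhlhe41 WT slopes were 0.13 in fibroblasts and 0.035 in slices. The KO fibroblast slopes lost their calls without day 1 (0.18 for Bhlhe40 and 0.20 for Bhlhe41), and that of Bhlhe41 also without day 3 (0.13). Leaving out 1 time each, the WT slice slope of Bhlhe40 ran from -0.054 to 0.018, the latter without WT CT00. The correlation in KO fibroblasts was -0.0057 on detrended residuals.

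In the short course, with no filter the T00 difference of Bhlhe41 (-1.05) and the KO rise of Bhlhe40 at T06 (1.09) lost their calls. With a pseudocount of 0.1 the changes of KO Bhlhe41 at T12 (1.73) and T24 (1.54) and over time (1.73) were called, and the Bhlhe41 interaction (2.47) was not. With the replicate block the KO rise of Bhlhe40 at T06 stayed at 1.09 and lost its call, and no other call of the members changed. Replicate numbers had correlations of -0.113 to 0.0893 across genotypes, 0 of 12 over 0.1. Across times within a genotype 4 of 18 pairs in KO (up to 0.217) and 2 of 18 in WT (up to 0.111) were over 0.1. Not every pair was, so the numbers were not taken as pairing the samples, though such correlations cannot exclude pairing. Leaving out 1 replicate each, the overall Bhlhe40 difference ran from -0.88 to -0.74, that at T00 from -0.082 to 0.75, that at T24 from -2.17 to -1.22 and its interaction spread from 1.14 to 2.92. The T00 difference of Bhlhe41 ran from -1.17 to -0.95. Bhlhe40 over time ran from 1.54 to 2.30 in WT and from 1.24 to 2.15 in KO. Against T00, WT Bhlhe40 ran from 1.54 to 2.30 at T06, 1.26 to 1.62 at T12 and 1.31 to 1.75 at T24, and KO Bhlhe40 from 0.73 to 1.31, -0.53 to 0.68 and -1.41 to 0.37.

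Counts over all genes moved more. Genotype calls ran from 519 to 10602 in slices (762 as reported), 2394 to 12233 in fibroblasts (2415) and 560 to 2423 in the short course, where by time they ran from 271 to 644 at T00, 85 to 289 at T06, 77 to 386 at T12 and 866 to 2788 at T24. Interactions ran from 23 to 429, rhythms in KO slices from 0 to 2733 and in WT slices from 0 to 797, rhythm differences in slices from 0 to 1185, and trends in KO slices from 0 to 1481. Of the slice calls 172 of 762 were higher in KO as deposited and 305 of 519 after median-of-ratios rescaling. Unknown depth and 1 value per time limit the precision of Bhlhe41 in slices.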
